A study of Bos taurus with 20 samples.

Results

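The Z-disc is the plate that bounds each sarcomere, the contractile unit of striated muscle. Thin actin filaments from neighbouring sarcomeres are cross-linked there by alpha-actinin, and the giant spring protein titin is anchored there by its N-terminal end. Around this lattice sits a layer of adaptor proteins, among them the PDZ-LIM proteins, myotilin, the myozenins, telethonin and muscle LIM protein, many of which are linked to inherited muscle disease. In meat science the Z-disc and titin are known as sites where muscle structure loosens during cold ageing.

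Here 10 genes of the Z-disc were followed in bovine neck muscle: TTN, PDLIM3, PDLIM5, ACTN2, LDB3, MYOZ1, MYOT, TCAP, CSRP3 and NEB. Members were the array probes whose gene name, or whose symbol in the probe description, was one of these genes. TTN, MYOT and NEB probes carried older locus names and were taken in by the symbol in their description. NEB probe A_73_108271 has no symbol there and was taken in through its gene number or transcript record. This gave 14 probes out of 21475 on the array, all 14 among the 15430 probes that passed the filter on dim signal and were tested. TTN and PDLIM5 had 2 probes each, NEB had 3 and the other 7 genes had 1. Probes of a gene read the same RNA samples and are not independent of each other.

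Muscle came from 10 cows at a slaughterhouse and was kept under vacuum at 4 °C, and 1 sample per animal was profiled at day 0 and 1 at day 14 of storage. The 5 control animals (K3, K6, K8, K9 and K10) carry the label control and no other treatment is named for them. The 5 treated animals (DE27, DE29, DE30, DE31 and DE32) were given 2 drugs. One was dexamethasone, a synthetic glucocorticoid, at 0.4 mg per animal per day by mouth for 31 days. The other was the oestrogen estradiol, injected into muscle 6 times at a weekly dose of 5 mg per animal. The 2 drugs were always given together, so their effects cannot be told apart, and all samples of both treatments share the vacuum storage. Age and breed are not given in the sources used here. Groups are therefore control day 0, control day 14, treated day 0 and treated day 14, with 5 arrays each, and the day 0 and day 14 samples of a treatment came from the same 5 animals. The design asks how treated muscle differs from control muscle on each day, how muscle changes over storage, and whether the storage change differs between treatments.

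Values are log2 fluorescence of a probe after the array's own 75th percentile was set to a common value, so a value is a level relative to the rest of that array and a difference of 1 is 2-fold. Signal depends on the probe, so values of different probes were not compared as amounts of RNA. In whole tissue, fewer cells of a type and less RNA per cell cannot be told apart. The tissue label was checked on 12 muscle fibre markers: 10 were tested and were well above background on all 20 arrays, while MYH2 and MYLPF had no tested probe. The 75th percentile of the processed signal itself was lower at day 14 than at day 0 in 10 of 10 animals, by 1.03 on the log2 scale on average (exact permutation test over animals, two-sided, p = 0.00195, 0.0117 adjusted over 6 such tests). At day 0 it averaged 806 ± 114 units in control muscle (SD, n = 5) and 821 ± 99.0 units in treated muscle. At day 14 the averages were 428 ± 99.0 and 377 ± 53.1 units. A rise or fall over storage below is therefore a change against this general loss of signal, whose part in the results was not tested.

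Arrays lay on 6 slides and were scanned in 3 sessions. Only slide 6 held control arrays of both days (K10 at day 0, K3 and K8 at day 14) and only slide 5 held treated arrays of both days (DE32 at both), so slide and storage day can hardly be told apart. All 3 scan sessions held control arrays of both days, and sessions 1 and 2 held treated arrays of both days.

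Titin, encoded by TTN, reaches from the Z-disc to the M-band as a molecular spring and is made in several splice forms. One TTN probe (A_73_106975) is described as transcript variant N2-A, the full-length skeletal muscle form. In control muscle at day 0 its log2 signal was 10.73 in K3, 12.23 in K6, 11.88 in K8, 12.15 in K9 and 10.45 in K10. At day 14 the same animals read 14.74, 15.09, 13.00, 15.08 and 14.42. Every animal was higher at day 14 and the days did not overlap, a feature of 13.0% of all probes. In treated muscle the day 0 values were 12.13 in DE27, 11.80 in DE29, 12.38 in DE30, 11.73 in DE31 and 11.72 in DE32, and the day 14 values were 14.26, 14.50, 15.11, 15.64 and 15.28. Again all 5 animals were higher at day 14, with no overlap between days (12.5% of all probes). The mean difference was 2.98 ± 0.47 (SE) in control and 3.01 ± 0.27 in treated animals, or 7.90-fold and 8.03-fold, and 2.99 ± 0.28 over all 10. The smallest change was 1.12 in K8 and the largest 4.01 in K3.

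The other TTN probe (A_73_111346), described as transcript variant novex-2, a cardiac titin form, read differently. Control animals K3, K6, K8, K9 and K10 read 10.69, 12.77, 11.54, 12.17 and 10.35 at day 0 and 10.50, 10.42, 9.40, 8.45 and 12.38 at day 14. Of these 5, 4 were lower at day 14 and K10 was higher, by 2.03. Treated animals DE27, DE29, DE30, DE31 and DE32 read 10.67, 11.67, 12.02, 11.83 and 11.11 at day 0 and 13.82, 10.90, 12.02, 11.53 and 10.56 at day 14. DE27 was higher by 3.15, and the others changed by -0.77 (DE29), 0.004 (DE30), -0.29 (DE31) and -0.55 (DE32). The mean storage difference was -1.28 ± 0.68 in control and 0.31 ± 0.54 in treated animals, and day 0 and day 14 overlapped in both. Without K10 the control value was -2.10. The treated mean lay above 0 only through DE27. Both TTN probes are assigned to 1 transcript record in the array's design, and each was well above background on all 20 arrays.

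Another 2 probes of titin-like loci carry no TTN symbol and fall outside the rule, so they stand here for comparison only. LOC615079 (A_73_121139), called titin isoform N2-A in its description, differed by 0.40 ± 0.21 between day 14 and day 0 over all animals. LOC514950 (A_73_116634), called isoform N2-B, differed by 0.30 ± 0.21. Neither reached the size seen with TTN probe A_73_106975, and both overlapped between days. Across the 20 arrays, after the 4 group means were removed, LOC514950 and LOC615079 correlated with each other at r = 0.79. In the same way the 2 TTN probes correlated at r = 0.16. With LOC615079 and LOC514950, TTN A_73_111346 correlated at 0.71 and 0.51, and TTN A_73_106975 at 0.35 and 0.39. These correlations share arrays and scaling and are descriptions only.

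PDLIM3, the actinin-associated LIM protein, joins alpha-actinin at the Z-disc through its PDZ domain. Its probe (A_73_117280) read 14.07 in K3, 14.65 in K6, 14.89 in K8, 14.35 in K9 and 14.19 in K10 at day 0. At day 14 these control animals read 11.11, 10.76, 11.51, 9.50 and 13.17. All 5 were lower and the days did not overlap (12.0% of all probes), with K10 the least changed (-1.02) and K9 the most (-4.86). Treated animals DE27, DE29, DE30, DE31 and DE32 read 13.45, 13.45, 12.76, 13.59 and 13.12 at day 0 and 11.46, 8.58, 11.38, 10.91 and 8.80 at day 14. All 5 were lower here too, again with no overlap between days (7.73% of all probes). The difference was -3.22 ± 0.53 in control and -3.05 ± 0.56 in treated animals, 9.32-fold and 8.26-fold lower, and -3.13 ± 0.40 over all 10. Leaving out 1 animal at a time gave -3.77 to -2.81 in controls and -3.46 to -2.59 in treated animals.

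PDLIM3 also differed between treatments before storage. At day 0 all 5 treated animals, at 12.76 to 13.59, were below all 5 controls, at 14.07 to 14.89, a feature of 2.95% of all probes. The difference was -1.15 ± 0.21, or 2.23-fold lower. It was -0.90, -1.45 and -0.73 within slides 1, 3 and 6, the slides that held both treatments at day 0. At day 14 the treatments overlapped and the difference was -0.98 ± 0.74.

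**Figure D1:**
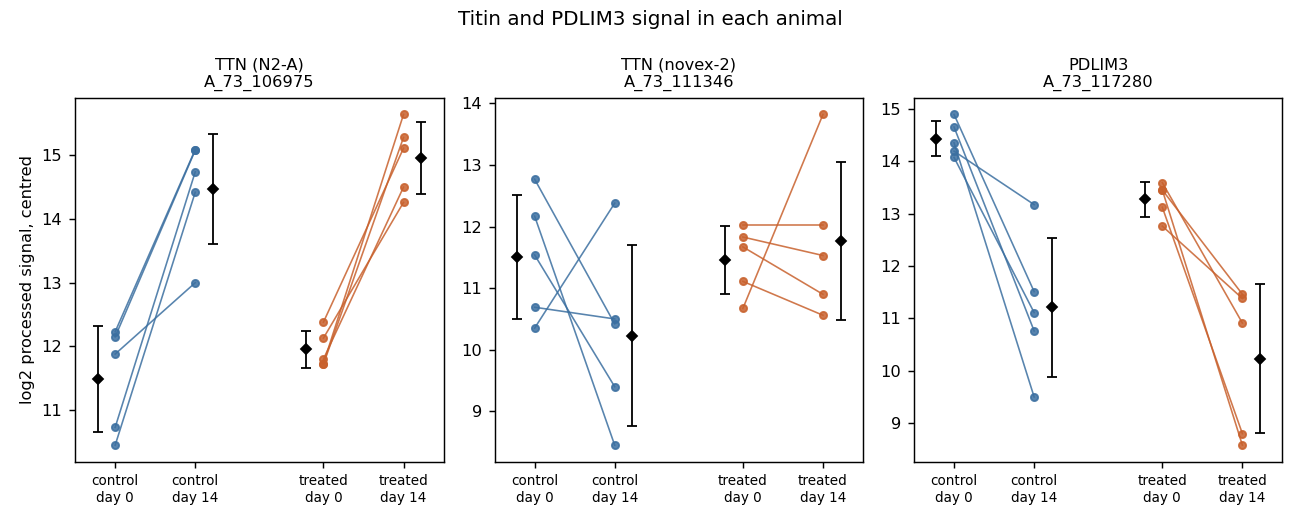
Log2 processed signal (y axis, centred on each array's 75th percentile) of the 2 TTN probes and the PDLIM3 probe in control (blue) and treated (orange) animals at storage day 0 and day 14; each line joins the 2 samples of 1 animal, and black diamonds with bars are the group mean ± SD (n = 5). TTN A_73_106975 was higher and PDLIM3 lower at day 14 in all 10 animals, while TTN A_73_111346 went both ways; the y axes differ between panels and levels are not comparable across them.

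The 10 genes were chosen by measured differences of these same arrays in log2 signal, with TTN and PDLIM3 named first. Which comparison or threshold decided the choice is not stated, so no gene just outside it can be given. The differences of TTN and PDLIM3 are therefore given as descriptions without a test, and their 3 probes are left out of the counts that follow. Of the 11 probes of the other 8 genes, 1 was higher and 2 lower past a limma adjusted p of 0.05 over storage in control animals, against 21.8% and 17.3% of all tested probes (39.2% in either direction). In treated animals 2 were higher and 1 lower, against 18.1% and 11.6% of all probes (29.7%). Over all animals 2 were higher and 2 lower, against 31.6% and 23.1% (54.6%). Day 0 and day 14 did not overlap for 1 higher and 1 lower of these probes in controls, a feature of 13.0% and 12.0% of all probes, and for 2 higher and 1 lower in treated animals, a feature of 12.5% and 7.73%. The shares called were 3 of 11, 3 of 11 and 4 of 11, each below its background. The count of called Z-disc probes is thus no result about them, and what follows concerns single genes.

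These 11 probes were tested by limma with Benjamini-Hochberg adjustment over all 15430 probes. The rule did not state their contrast, but they were listed by the same hand as TTN and PDLIM3, so their p-values describe these samples and are no independent support. Over storage MYOT and TCAP were lower in control animals, and MYOT in treated animals. PDLIM5 probe A_73_104003 was higher in both, and NEB probe A_73_100924 in treated animals.

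MYOT encodes myotilin, an actin-bundling protein that binds alpha-actinin and filamin C. Control animals K3, K6, K8, K9 and K10 read 15.25, 16.28, 16.25, 16.14 and 15.93 at day 0 and 14.15, 13.11, 14.81, 13.10 and 15.33 at day 14. All 5 animals were lower at day 14, though K10 at day 14 still lay above K3 at day 0, so the groups overlapped. Treated animals DE27, DE29, DE30, DE31 and DE32 read 15.50, 15.93, 16.26, 16.00 and 15.38 at day 0 and 14.69, 12.74, 14.78, 13.23 and 12.58 at day 14. These days did not overlap. MYOT fell by 1.87 ± 0.42 in control animals (limma adjusted p = 0.0066, lower in 5 of 5) and by 2.21 ± 0.44 in treated animals (limma adjusted p = 0.00434, lower in 5 of 5).

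TCAP encodes telethonin, a small protein that caps the N-terminal ends of a pair of titin molecules in the Z-disc. In control animals K3, K6, K8, K9 and K10 it read 16.36, 16.36, 16.15, 16.40 and 16.25 at day 0, the narrowest spread of the member probes in that group, and 15.35, 14.97, 15.69, 14.42 and 15.72 at day 14. The days did not overlap, and TCAP fell by 1.07 ± 0.24 (limma adjusted p = 0.00616, lower in 5 of 5). Treated animals DE27, DE29, DE30, DE31 and DE32 read 15.91, 15.94, 16.08, 15.94 and 15.76 at day 0 and 16.56, 15.01, 15.80, 14.53 and 14.66 at day 14. Here 4 of 5 were lower and DE27 was higher, and the difference of -0.61 ± 0.35 did not pass (limma adjusted p = 0.204). Without DE27 it was -0.93 and passed (limma adjusted p = 0.0258, range over the 5 omissions 0.0258 to 0.479).

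PDLIM5, or enigma homologue, is a PDZ-LIM protein that ties protein kinase C to the Z-disc, and its splice forms include short ones without LIM domains. Probe A_73_104003, described as transcript variant 1, read 5.27, 5.80, 6.06, 5.58 and 5.01 in K3, K6, K8, K9 and K10 at day 0 and 7.05, 7.22, 7.25, 8.06 and 6.64 at day 14. In DE27, DE29, DE30, DE31 and DE32 it read 5.91, 5.21, 5.67, 5.35 and 5.25 and then 7.0, 7.60, 7.27, 6.43 and 7.46. All 10 animals were higher at day 14 and the days did not overlap. It rose by 1.70 ± 0.28 in control animals (limma adjusted p = 0.0015) and by 1.68 ± 0.24 in treated animals (limma adjusted p = 0.000877). The probe is dim: its median unscaled signal was 72.9 and 68.0 units in the day 0 groups and 113 and 114 at day 14. With a normexp background (which added an offset of 50 units) and quantile normalization the rise was 0.70 and 0.52.

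The second PDLIM5 probe (A_73_117484, transcript variant 5) ranged from 7.39 to 8.17 at day 0 and from 7.38 to 8.69 at day 14. Its storage difference was 0.30 ± 0.15 over all animals, higher in 7 of 10, and did not pass (limma adjusted p = 0.0945).

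NEB encodes nebulin, the giant protein that runs along the thin filament and ends in the Z-disc. Its 3 probes disagreed. Probe A_73_100924 was well above background on 18 of 20 arrays, and the other 13 member probes were on all 20. It read 2.92, 4.76, 7.85, 5.01 and 4.19 in the control animals at day 0 and 5.96, 5.75, 5.96, 6.58 and 8.39 at day 14, in the order K3, K6, K8, K9 and K10. K8 was the only control animal that was lower at day 14. In DE27, DE29, DE30, DE31 and DE32 it read 4.73, 4.67, 5.18, 3.49 and 3.89 at day 0 and 6.32, 5.51, 7.14, 6.63 and 6.42 at day 14, with no overlap. It rose by 2.01 ± 0.36 in treated animals (limma adjusted p = 0.00266, higher in 5 of 5) and differed by 1.58 ± 0.80 in controls without passing (limma adjusted p = 0.135). Without K8 the control value was 2.45 and passed (limma adjusted p = 0.021, range over the 5 omissions 0.021 to 0.398). With a normexp background and quantile normalization the value over all animals was 0.55 in place of 1.80.

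The other NEB probes did not pass. Probe A_73_108271 ranged from 11.52 to 13.48 in control and 12.33 to 13.36 in treated muscle at day 0, and from 12.47 to 13.44 and 12.81 to 13.99 at day 14. Its storage difference was 0.20 ± 0.24 over all animals (limma adjusted p = 0.498). Probe A_73_112251 ranged from 10.19 to 11.29 and 9.80 to 10.69 at day 0, and from 9.76 to 11.40 and 9.57 to 10.66 at day 14. Its difference was -0.25 ± 0.21 (limma adjusted p = 0.332). Day 0 and day 14 overlapped for both.

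ACTN2, LDB3, MYOZ1 and CSRP3 did not pass over storage in control, treated or all animals. ACTN2, the sarcomeric alpha-actinin of the Z-disc, ranged from 14.42 to 15.79 in control and 14.08 to 15.49 in treated muscle at day 0, and from 14.23 to 15.28 and 14.06 to 15.10 at day 14. Its storage difference was -0.38 ± 0.21 over all animals (limma adjusted p = 0.134), and with arrays centred on the median it passed (-0.69, limma adjusted p = 0.0114). It also passed without K10 (-0.52, limma adjusted p = 0.0413) and without DE27 (-0.51, limma adjusted p = 0.0393). LDB3, a PDZ-LIM partner of alpha-actinin also called ZASP or Cypher, spanned 16.82 to 17.51 at day 0 and 16.96 to 18.23 at day 14. It differed by 0.27 ± 0.14, higher in 9 of 10 animals, and did not pass (limma adjusted p = 0.105).

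MYOZ1, or calsarcin 2, links alpha-actinin to the phosphatase calcineurin. It spanned 17.50 to 18.16 at day 0 and 17.09 to 18.38 at day 14, and its difference of 0.05 ± 0.16 did not pass (limma adjusted p = 0.818). After quantile normalization it had the opposite sign and passed (-0.39, limma adjusted p = 0.0204). CSRP3, the muscle LIM protein of the Z-disc and nucleus, ranged from 14.23 to 16.23 in control and 13.38 to 14.64 in treated muscle at day 0. At day 14 it ranged from 13.58 to 15.61 and from 11.03 to 14.34. It differed by -0.69 ± 0.39 over storage (limma adjusted p = 0.134), and with arrays centred on the median it passed (-1.01, limma adjusted p = 0.0357).

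**Figure D2:**
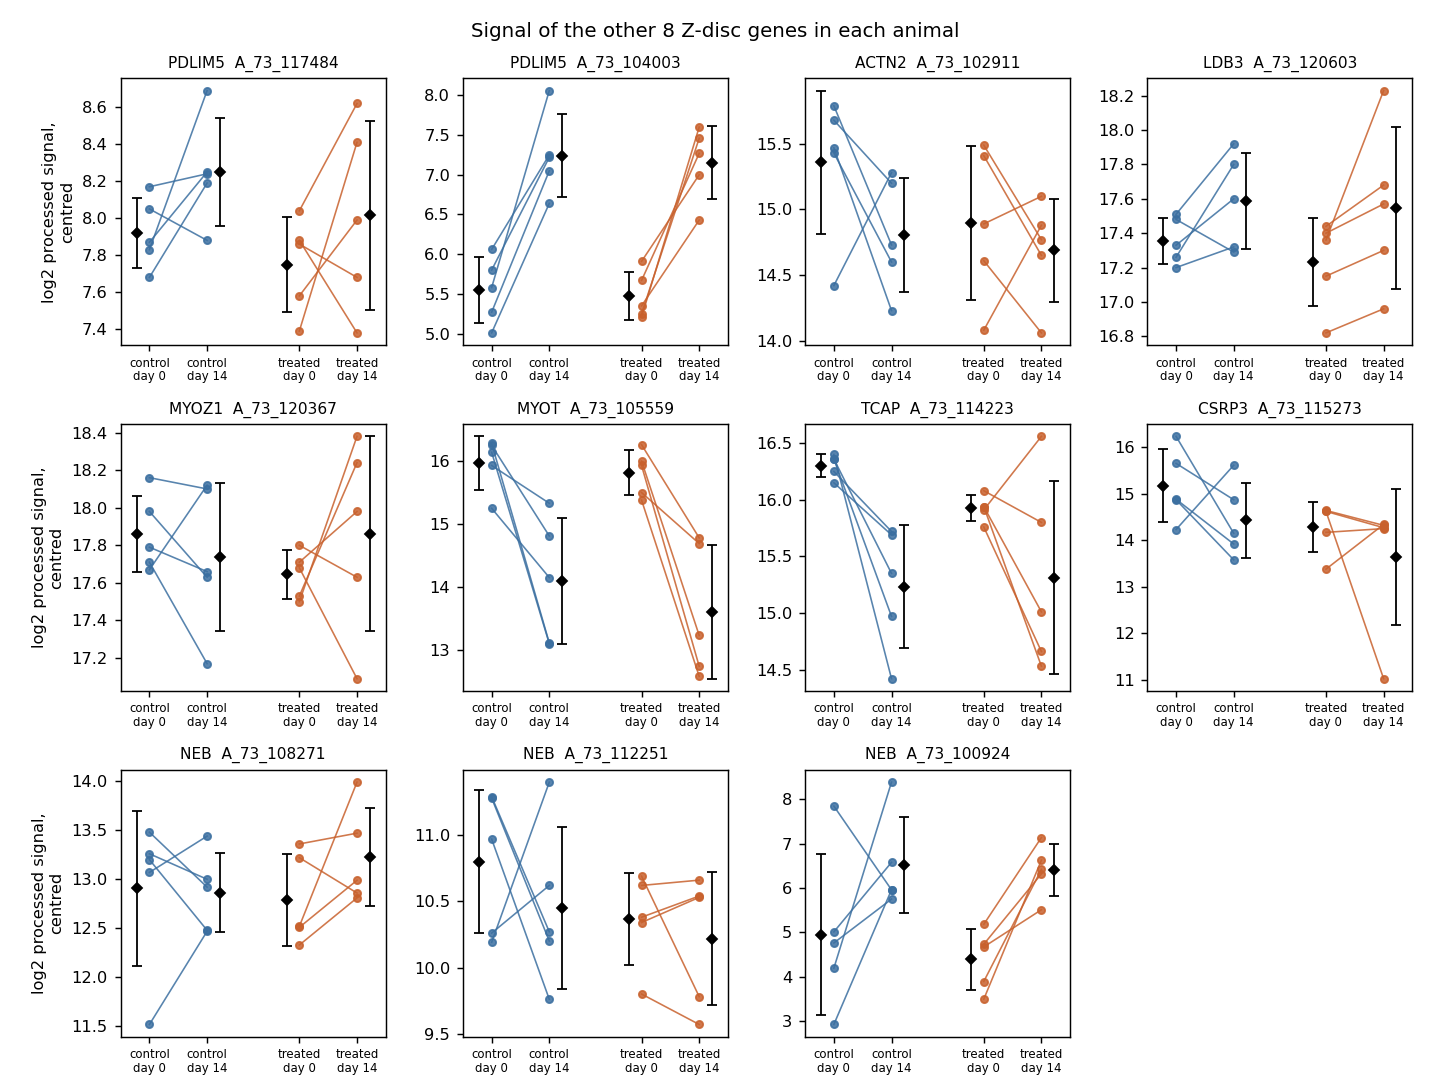
Log2 processed signal (y axis, centred on each array's 75th percentile) of the 11 probes of the other 8 genes in control (blue) and treated (orange) animals at day 0 and day 14; lines join the samples of 1 animal and black diamonds with bars are the group mean ± SD (n = 5). MYOT was lower and PDLIM5 A_73_104003 higher at day 14 in all 10 animals, whereas the days overlap for ACTN2, LDB3, MYOZ1, CSRP3, PDLIM5 A_73_117484 and the NEB probes A_73_108271 and A_73_112251; y axes differ between panels.

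The storage values within slides and scan sessions could be read for the largest changes. For TTN probe A_73_106975 the difference was 3.42 within slide 6 in controls and 3.56 within slide 5 in treated animals. Within the scan sessions it lay between 2.58 and 3.62. For PDLIM3 it was -2.88 within slide 6 and -4.32 within slide 5, and between -3.60 and -2.79 within sessions. For MYOT it was -1.45 within slide 6 and -2.80 within slide 5, and for TCAP it was -0.73 and -1.1. For PDLIM5 probe A_73_104003 it was 2.14 and 2.21, and for NEB probe A_73_100924 it was 1.77 and 2.54. All of these kept the sign of the value over all arrays.

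With slide as a block in the model, the MYOT, TCAP and NEB A_73_100924 calls over all animals ended. MYOT then had -1.38 (limma adjusted p = 0.136, range over its alternatives other than left-out animals 5.02e-07 to 0.136), TCAP -0.59 (limma adjusted p = 0.346, range 2.81e-06 to 0.346) and NEB A_73_100924 2.06 (limma adjusted p = 0.0968, range 0.00132 to 0.173). The PDLIM5 A_73_104003 call held over all animals at 1.68 (limma adjusted p = 0.00823), in a fit that called 2278 of 15430 probes. Within each treatment the slide block ended it, with 2.14 in controls (limma adjusted p = 0.0513) and 2.21 in treated animals (limma adjusted p = 0.185), and it ended the other member calls there too. These values are the same readings as within slides 6 and 5 above, the only slides with both days of a treatment. In treated animals that fit called 0 of 15430 probes, so a lost call there cannot decide about a single probe. The values of TTN A_73_106975 and PDLIM3 in that fit were 2.95 and -2.86.

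Of the 20 arrays, that of K10 at day 14 was most often the highest of its group among the members. It had the highest value of the 5 control day 14 arrays for 10 of the 14 probes, including PDLIM3, MYOT, TCAP, ACTN2, CSRP3 and all 3 NEB probes, and the lowest for both PDLIM5 probes. Its 75th percentile of 533 was also the highest of that group, the others lying between 274 and 485. At day 0 the array of the same animal had the lowest value for 7 of the 14 probes. This was not particular to K10, as K9 at day 14 and DE32 at both days also held 7 lowest values. DE30 at day 0 and DE27 at day 14 each held 7 highest. The part of the K10 day 14 array in the storage values was not tested beyond leaving the animal out. PDLIM3 in controls was then -3.77, and ACTN2 (-0.90, limma adjusted p = 0.0103) and CSRP3 (-1.28, limma adjusted p = 0.0209) passed in controls.

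**Figure D3:**
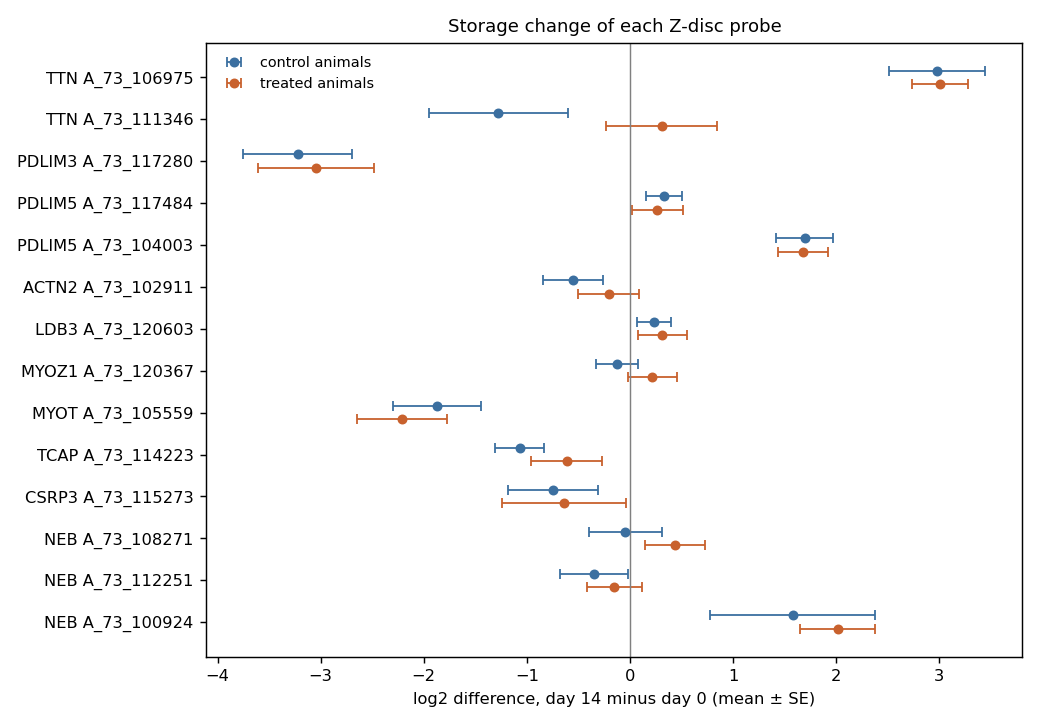
Log2 difference between day 14 and day 0 (x axis, mean ± SE from limma) of each of the 14 probes in control (blue) and treated (orange) animals, 5 per treatment. TTN A_73_106975 lies near 3 and PDLIM3 near -3 in both treatments, at 2.98 and 3.01 and at -3.22 and -3.05. The TTN A_73_111346 values lie on either side of 0, the treated one above 0 only through DE27.

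Whether the storage change differed between treatments was tested on the within-animal differences. For that difference limma called 0 of 15430 probes (0.0%), with 582 at an unadjusted p under 0.05, and 0 of the 11 probes of the 8 genes were among these 582. Member estimates ran from -0.34 ± 0.60 for MYOT to 1.58 ± 1.04 for TTN A_73_111346. For TTN A_73_106975 it was 0.02 ± 0.54 and for PDLIM3 0.18 ± 0.79, and such errors leave room for a sizeable difference in either direction. With the 20 arrays fitted without pairing by animal, 0 of the 11 were called as well.

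Between treatments at day 0, 0 of the 11 probes of the other 8 genes passed, against 2.45% of all tested probes, and 2 of 11 had an unadjusted p under 0.05 by limma. All 11 had a value below 0, with a median of -0.22 against -0.01 over all tested probes. This was not particular to the members, as the lists of other sarcomere genes described below also had medians below 0. These were -0.29 for other Z-disc genes (6 of 29 above 0) and -0.25 for titin-binding genes (5 of 12). M-band genes had -0.12 (3 of 6), thin filament genes -0.16 (5 of 15) and thick filament genes -0.20 (3 of 12). Of the 11 probes, TCAP came closest to passing. All 5 treated animals, at 15.76 to 16.08, lay below the 5 controls, at 16.15 to 16.40, a feature shared by 2.95% of all probes. The difference was -0.37 ± 0.12 (limma adjusted p = 0.125). CSRP3 had the largest value of the 8 genes, -0.89 ± 0.38 (limma adjusted p = 0.256), with overlapping groups, and ACTN2 had -0.46 ± 0.32 (limma adjusted p = 0.517). LDB3 was above 0 with slide as a block (0.01), after quantile normalization (0.05) and with a normexp background (0.03). For TTN the day 0 values were 0.46 ± 0.35 (A_73_106975) and -0.05 ± 0.45 (A_73_111346).

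In the same comparison cell type markers had values on either side of 0 and 0 of them passed. Muscle fibre markers had a median of -0.27, with 3 of 10 above 0, and nerve and Schwann cell markers -0.74, with 0 of 6 above 0. Endothelial markers had 0.31 (8 of 8 above 0), adipocyte markers 0.39 (6 of 6), macrophage and leukocyte markers 0.18 (5 of 7) and erythroid markers 0.57 (3 of 3). Smooth muscle and pericyte markers had 0.13 (7 of 11) and fibroblast markers 0.0047 (5 of 10). The summed nerve and Schwann signal on the log2 scale ranged from 12.56 to 13.35 in control and 12.07 to 13.21 in treated muscle at day 0. The part of these cell types in the day 0 values was not tested.

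At day 14, 0 of the 11 probes passed, against 0.0713% of all tested probes, and 0 of 11 had an unadjusted p under 0.05 by limma. The largest value was 1.54 ± 0.74 for TTN A_73_111346, where treated animals spanned 10.56 to 13.82 and controls 8.45 to 12.38. PDLIM3 had -0.98 ± 0.74 and CSRP3 -0.78 ± 0.64 (limma adjusted p = 0.694). Of the cell type markers 0 passed at day 14. Muscle fibre markers had a median of 0.51 (10 of 10 above 0) and fibroblast markers -0.93 (0 of 10). The medians were -0.62 for nerve and Schwann cell, -0.50 for macrophage and leukocyte and -0.35 for adipocyte markers. They were -0.27 for smooth muscle and pericyte, -0.18 for erythroid and -0.0041 for endothelial markers. Their part in the day 14 values was not tested. Over both days, from the mean of each animal's 2 samples, 0 of the 11 passed, against 3.32% of all tested probes, with 1 of 11 at an unadjusted p under 0.05 by limma. PDLIM3 then had -1.07 ± 0.37 and CSRP3 -0.83 ± 0.32 (limma adjusted p = 0.184). Of 6 nerve and Schwann cell markers 2 were lower over both days, against 1.94% of all tested probes, and 0 of the other markers passed.

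**Figure D4:**
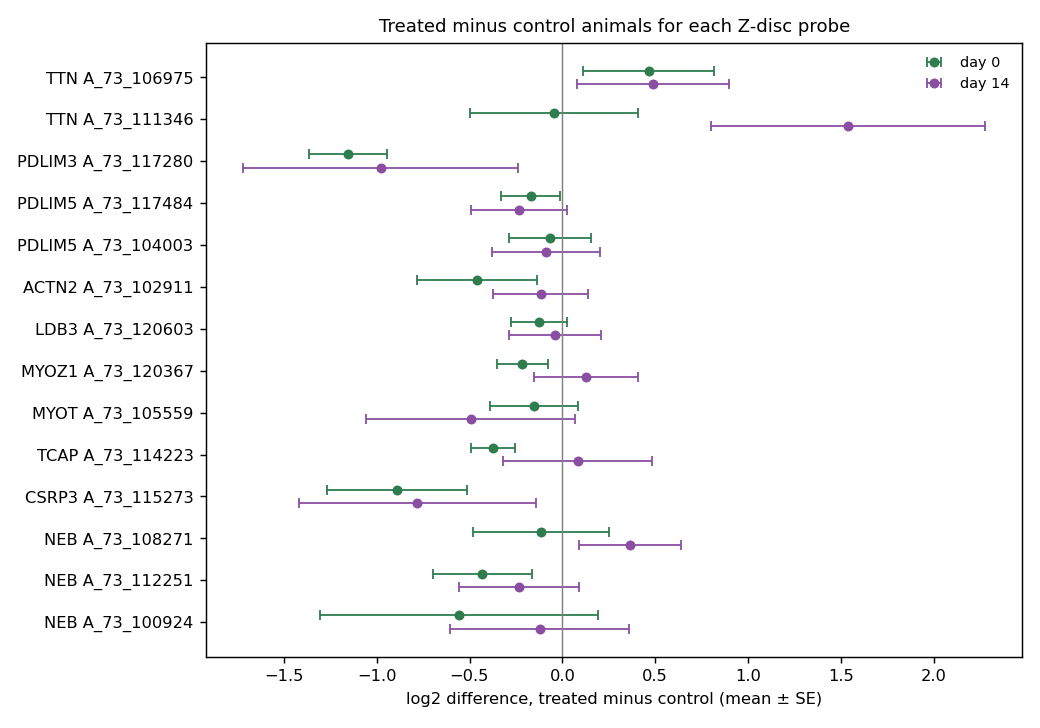
Log2 difference between treated and control animals (x axis, mean ± SE from limma, 5 animals per group) of each of the 14 probes at day 0 (green) and day 14 (purple). PDLIM3 lies at -1.15 at day 0 with a short bar and at -0.98 at day 14 with a longer one; most other bars cross or nearly reach 0.

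The genes most like TTN and PDLIM3 over the 20 arrays were sought among 9289 named probes above background on every array. For TTN A_73_106975 they were ZMYND8 (Pearson r = 0.95), PLA2G2D1 (0.94), HNRNPA1 (0.94), TREM1 (0.93) and KCND1 (0.93). With the 4 group means removed these fell to between 0.55 and 0.59. For PDLIM3 they were CFL2, the muscle cofilin that severs actin filaments (0.96), CASD1 (0.96), ARL6IP5 (0.96), PPP1CB, a catalytic subunit of protein phosphatase 1 (0.95), and BTF3 (0.95). With group means removed these remained between 0.82 and 0.87. The storage differences of the PDLIM3 set ran from -1.76 ± 0.28 for CFL2 to -0.66 ± 0.12 for ARL6IP5. Such correlations share arrays and scaling, and are descriptions only.

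Among the members themselves, PDLIM3 ran with MYOT, at r = 0.94 over 20 arrays and 0.83 with group means removed. It ran with NEB A_73_112251 (0.82) and MYOZ1 (0.72), and against PDLIM5 A_73_117484 (-0.70), in the same measure with group means removed. TTN A_73_106975 correlated with PDLIM3 at -0.82 over all arrays and at -0.11 once group means were removed. TTN A_73_111346 gave 0.74 with PDLIM3, 0.72 with MYOT and 0.81 with NEB A_73_112251 after that removal.

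Other genes of the Z-disc were mixed over storage. Of 33 listed, 29 had a tested probe, and over all animals 7 were higher, 10 were lower and 12 did not pass, against 31.6% higher and 23.1% lower of all tested probes. The median was -0.22, against 0.10 over all tested probes. A slide block left 3 of the 29 higher and 1 lower, against 1463 higher and 815 lower of all 15430 probes. NEBL, the nebulin relative nebulette, rose by 1.64 ± 0.23 (limma adjusted p = 7.51e-06), and by 0.48 with a normexp background and quantile normalization. ACTN4, a non-muscle alpha-actinin, rose by 0.92 ± 0.10 (limma adjusted p = 7.17e-07) and FLNC, the muscle filamin that binds myotilin, by 0.70 ± 0.14 (limma adjusted p = 0.000358). Both had negative values without scaling between arrays. SYNPO2L, a cytoskeletal partner of alpha-actinin, fell by 1.32 ± 0.20, CAPZA2, a subunit of the actin capping protein of the Z-disc, by 1.1 ± 0.17 and PDLIM1, another PDZ-LIM protein, by 0.90 ± 0.21 (limma adjusted p = 1.63e-05, 2.94e-05 and 0.0014). The slide block ended the calls of FLNC (0.75, limma adjusted p = 0.0541), CAPZA2 (-0.98, limma adjusted p = 0.0676) and PDLIM1 (-0.35, limma adjusted p = 0.535).

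Between treatments 0 of these 29 genes passed at day 0 or at day 14, against 2.45% and 0.0713% of all tested probes. Over both days 1 of the 29 passed, against 3.32% of all tested probes, so this count is no result about the list. The gene was SYNPO2, or myopodin, an actin-binding Z-disc protein. It was lower in treated animals by 1.0 ± 0.18 on the log2 scale (limma adjusted p = 0.0175).

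Of 12 titin-binding stress and signalling genes, 6 were lower, 1 was higher and 5 did not pass over storage in all animals, against 23.1% lower and 31.6% higher of all tested probes. The median was -0.69, against 0.10, and with slide as a block 0 passed, against 2278 of all 15430 probes. ANKRD23, an ankyrin repeat protein of the titin N2A region, fell by 1.92 ± 0.29 (limma adjusted p = 1.92e-05). CAPN3, the muscle calpain that docks on titin, fell by 1.63 ± 0.27 (limma adjusted p = 4.92e-05), and SQSTM1, the autophagy receptor p62, by 0.71 ± 0.18 (limma adjusted p = 0.003). In the fit with slide as a block these were -1.72, -1.64 and -0.73 (limma adjusted p = 0.052, 0.0538 and 0.178). The 1 higher gene was TRIM55, a RING protein of the sarcomere, at 1.35 ± 0.50 (limma adjusted p = 0.0285); it was above background on 11 of 20 arrays, and its call was lost under every other scaling, with slide as a block and without K8, DE30 or DE31.

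At the M-band, where titin ends, 3 of 6 tested genes fell and 0 rose, against 23.1% and 31.6% of all tested probes. These were MYOM2 and MYOM3, the myomesins that cross-link myosin, by 1.87 ± 0.35 and 0.86 ± 0.31, and CKM, muscle creatine kinase, by 0.86 ± 0.26 (limma adjusted p = 0.000156, 0.0218 and 0.00951). The MYOM3 call was also lost with a normexp background and without DE29 or DE31.

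Of 15 thin filament genes 3 rose and 3 fell, below the shares of all tested probes (31.6% and 23.1%). LMOD2, which elongates thin filaments, fell by 1.92 ± 0.29, CFL2 by 1.76 ± 0.28 and KLHL41 by 0.66 ± 0.25 (limma adjusted p = 2.21e-05, 3.58e-05 and 0.0281). The KLHL41 call was lost with the animal as a replicate block, with a normexp background and without K3, K6, K8, K9, DE29 or DE32. TPM3, ACTA1 and KBTBD13 rose by 0.56 ± 0.16, 0.92 ± 0.32 and 0.47 ± 0.19 (limma adjusted p = 0.00552, 0.0183 and 0.0397), and all 3 had negative values without scaling. The TPM3 call was lost with arrays centred on the median. The ACTA1 call was lost there, with a normexp background, without scaling and without DE29 or DE31. The KBTBD13 call was lost under quantile normalization, median centring, a normexp background, the authors' table and the animal as a replicate block, and without K3, K8, K9, DE29, DE30 or DE31. Of 12 thick filament genes 1 passed, also below those shares. It was MYH7, the slow myosin heavy chain (0.58 ± 0.12, limma adjusted p = 0.000396), which was negative without scaling and whose call was lost under quantile normalization, median centring and a normexp background. With slide as a block 0 genes of the M-band, thin filament and thick filament lists passed, against 2278 of all 15430 probes. KBTBD13 then had -0.03. In these 3 lists 0 genes passed between treatments at day 0 or day 14, against 2.45% and 0.0713% of all tested probes.

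Markers of other cells moved over storage beside the Z-disc genes, to be read against the 31.6% of all tested probes that were higher and 23.1% that were lower. Of 8 endothelial markers 7 rose, with a median of 0.80, and of 11 smooth muscle and pericyte markers 7 rose and 1 fell, with a median of 0.56. Of 10 fibroblast markers 4 fell, with a median of -0.79, and of 6 adipocyte markers 2 fell. Of 3 erythroid markers 2 rose, of 7 macrophage and leukocyte markers 2 rose and of 6 nerve and Schwann cell markers 1 rose. Muscle fibre markers were split, 3 higher and 1 lower of 10, with a median of 0.16. In the fit with a slide block 1 endothelial marker was higher, 1 fibroblast marker was lower and 0 of the others passed. That fit called 1463 higher and 815 lower of all 15430 probes. Split by treatment, 0 of the 10 fibre markers rose and 1 fell in control animals, with a median of -0.15. The shares of all tested probes there were 21.8% higher and 17.3% lower. In treated animals 4 rose and 0 fell, with a median of 0.39, against 18.1% higher and 11.6% lower of all tested probes. The treated minus control difference in the storage change was above 0 for 10 of 10 fibre markers (median 0.56), and 0 passed. On the log2 scale the summed fibre signal ranged from 20.33 to 20.78 in control and 20.10 to 20.59 in treated muscle at day 0, and from 20.41 to 20.87 and 20.72 to 21.19 at day 14. The summed endothelial signal ranged from 12.10 to 12.57 and 12.56 to 12.95 at day 0, and from 12.47 to 13.94 and 12.77 to 13.93 at day 14. Well above background on all 20 arrays were 8 of the 8 endothelial, 11 of the 11 smooth muscle, 9 of the 10 fibroblast, 2 of the 6 adipocyte and 2 of the 3 erythroid markers. The part of other cell types in the storage values was not tested.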

How the data were processed

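Total RNA of neck muscle was labelled with cyanine 3 and hybridised to a bovine oligonucleotide array. Treatment and day were read from the titles and characteristics. A free-text description that gives day 0 for every control and day 14 for every treated sample contradicts these and was not used, and the title D31_D0 was read as animal DE31 at day 0. Per the file headers, Feature Extraction 9.5.1.1 made the deposited processed signal, a linear intensity after background subtraction and multiplicative detrending. A deposited series table by the authors holds intensities normalized between arrays by a method not given in the sources used here, which served as an alternative. The submitters' processing notes name R 2.11.1.

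From these values, log2 processed signal was centred on each array's 75th percentile and the mean percentile was added back. Outlier spots (935 over 20 arrays) and control spots were left out, the 2 spots of a probe were averaged, and the 15430 probes well above background on at least 5 arrays were tested. No member spot was saturated. Fits were made with limma 3.58.1 in R 4.3.3 (Benjamini-Hochberg over all tested probes, threshold 0.05, two-sided), tables and figures with Python 3.11.15. Treatment effects used the 10 arrays of a day, storage changes the 10 arrays of a treatment or all 20, and the difference between treatments the within-animal differences. The fits were tested on simulated data. Samples of a group came from separate animals, and the number of arrays limits the precision.

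The same number at both days marks the same animal, so the days are paired by the titles. After group means were removed, 2 samples of an animal correlated at -0.15 to 0.28 (median 0.05, 10 pairs) and samples of different animals of one treatment at -0.31 to 0.36 (median -0.01, 40 pairs).

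The members, gene lists, markers and tests were chosen with earlier results of these data known. Text genes were every member probe and up to 3 called genes of smallest p per direction in each other list. These list genes were taken over storage in all animals and between treatments. Calls of list genes over storage within control or treated animals alone are not given. The 5 genes most correlated with the TTN probe of highest mean signal and with the PDLIM3 probe were also named. A listed gene was read from its tested probe of highest mean signal, and genes were named through the array's own columns and a RefSeq gene table (assembly ARS-UCD2.0). Probe sequences and genome positions were not used here.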

Additional observations from a re-analysis of the deposited data

Results flagged for a closer look

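Of 56 groups of 5 values (14 member probes in 4 groups), 3 held a value whose gap to its neighbour, divided by the group's range, exceeded Dixon's 95% critical value of 0.71. Chance alone would mark about 1 in 20 such groups. In control muscle at day 0, ACTN2 (A_73_102911) read 14.42 in K10, against 15.43 to 15.79 in the other four animals. In the same group NEB probe A_73_108271 read 11.52 in K3, against 13.07 to 13.48. In treated muscle at day 14, CSRP3 (A_73_115273) read 11.03 in DE29, against 14.25 to 14.34. Without DE29 the CSRP3 storage value in treated animals was 0.10 in place of -0.64, and without K10 the ACTN2 storage value in controls was -0.90 in place of -0.55.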

How the results depend on the processing

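Scaling sets the zero of the storage comparison. The median storage change of all tested probes was 0.10 in all animals, -0.01 after quantile normalization, -0.21 with centring on the median, -0.93 without scaling (an alternative chosen after seeing the data) and 0.41 without the filter. The share of called probes that were higher was 57.8%, and 48.4%, 31.6%, 4.01% and 73.0% under these alternatives, and 47.4% in the authors' table. Among member probes, 10 values changed sign and passed on one side. Without scaling these were LDB3 (-0.70 in control, -0.81 in treated and -0.76 in all animals), PDLIM5 A_73_117484 (-0.86 in treated, -0.73 in all), MYOZ1 (-0.91 in treated, -0.99 in all) and NEB A_73_108271 (-0.84 in all). MYOZ1 in all animals had -0.39 after quantile normalization and -0.37 with a normexp background. The cause was not tested. TTN A_73_106975, PDLIM3, PDLIM5 A_73_104003, MYOT and TCAP kept the sign of their storage change under every alternative run, and without scaling TTN A_73_106975 had 1.96 and PDLIM3 -4.16 in all animals.

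The day 0 treatment effect called 378 probes, and 231 without the filter, 158 without scaling and 203 with the animal as a random replicate block. Of the 11 probes of the 8 genes other than TTN and PDLIM3, 0 passed there under any of these settings. The day 14 effect called 11 probes, and 7 above background on all 20 arrays, 0 with slide as a block, 3 with scan session as a block and 110 with the random block. The effect over both days called 512, and 1049 with scan session as a block. Storage called 6043 probes in control, 4584 in treated and 8431 in all animals. Of the 11 probes, 3, 3 and 4 passed. With slide as a block 183, 0 and 2278 probes were called, with 0, 0 and 1 of the 11 (3042 probes in treated animals had an unadjusted p under 0.05 by limma). Without the filter the counts were 8723 in treated and 13305 in all animals. Without scaling 8780, 10503 and 11500 of 15430 probes were called in control, treated and all animals. In these fits 7, 8 and 10 of the 11 passed. Centring on the median called 8649 of 15430 probes in all animals, and 7 of the 11. Pairing the days with the animal as a replicate block gave 5503, 3998 and 8302 probes and ended no call of the 11 over storage.

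Leaving out 1 animal gave 135 to 312 probes at day 0, 0 to 12 at day 14 and 215 to 538 over both days (0 of the 11 in each). Storage then gave 3221 to 6652 (3 to 5 of the 11) in control, 2434 to 5703 (3 to 4) in treated and 7445 to 9060 (4 to 6) in all animals, and the difference between treatments 0. Counts moved by over 1.5 times without K8 (210), K9 (135), K10 (228), DE29 (178), DE31 (222) or DE32 (250) at day 0, and without K3, K8, K9, K10, DE29, DE30 (0 each) or DE27 (2) at day 14. Over both days they did so without K8 (234), K9 (215), K10 (312), DE27 (326), DE29 (256) or DE30 (294). Over storage they did so without K9 in controls (3221) and without DE29 (2660), DE31 (2501) or DE32 (2434) in treated animals. The storage values of the dim probes PDLIM5 A_73_104003 and NEB A_73_100924 were smaller with the normexp background and quantile normalization, as given above. That setting also added an offset of 50 units to each spot. The parts of background correction, offset and quantile step in this were not tested apart.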
